A study of Sus scrofa with 12 samples.

Results

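The *HOX* genes of the adult pig loin were described as a family. They are the 36 protein-coding genes of the Sscrofa11.1 annotation whose symbol starts with HOXA, HOXB, HOXC or HOXD, of 28224 annotated genes on the chromosomes, and they were chosen by name and not by any measured value. Each encodes a transcription factor that binds DNA through its homeodomain. In the embryo the genes of a cluster are switched on in the order in which they lie on the chromosome, low paralogue numbers in the anterior trunk and high ones towards the tail, and the combination a cell carries gives it its position along the body axis. Adult connective tissue and muscle are known to keep part of that combination, and *Longissimus dorsi* is a long back muscle that runs beside the thoracic and lumbar vertebrae.

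The 12 libraries came from *Longissimus dorsi* of 12 castrated male pigs of a closed purebred Iberian line, 1 library per animal, all fattened outdoors on acorns and grass. The 6 Tough animals had the highest and the 6 Tender animals the lowest estimated breeding values for the shear force of cooked meat, with close relatives avoided, so that the gap in shear force (7.32 to 10.63 in Tough, 2.18 to 3.43 kg/cm2 in Tender) follows from the selection. The study fattened and slaughtered its animals over several years, and the labels give neither year nor sequencing lane. The last Tender animal of the study was not used here.

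The level of a gene is given in FPKM, fragments per kilobase of transcript normalised to the depth of the library, as Cufflinks estimated it for each assembled transcript. A library held 25798 to 31353 assembled transcripts, and 1 FPKM stood for a median coverage of 6.54 to 10.2 reads per base in a library, so that a gene well below 1 FPKM was read only a few times over. An entry of 0 says that no assembled transcript was counted for the gene under the rule used. It can also be a failed estimate, since *GAPDH* was above 0 in 5 and *ALDOA* in 6 of the 12 libraries. *TTN*, *MYH7*, *TNNT3* and *PYGM*, genes of the muscle fibre, were above 0 in all 12 libraries, while *CKM*, *DES* and *CASQ1* were listed at 0 in some.

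The genes lie in 4 clusters: *HOXA* with 11 annotated genes (chr18:45373340-45480306), *HOXB* with 8 (chr12:24784953-24950661), *HOXC* with 9 (chr5:19151096-19268267) and *HOXD* with 8 (chr15:81893997-81990026). *HOXB4*, *HOXB9* and *HOXD4* are not symbols of this annotation. All 36 genes hold a homeobox of 180 bases in 1 exon, which a search of their coding sequence located. The homeoboxes of 4 genes on which results below turn are shown because they are what the members have in common and where they differ. *HOXC10* (chr5:19201900-19202079) and *HOXD8* (chr15:81932599-81932778) had the highest levels, and *HOXC11* (chr5:19187791-19187970) and *HOXD11* (chr15:81910060-81910239) were the most posterior members transcribed. The sequences are those of the RefSeq assembly Sscrofa11.1, plus strand, and not of these animals. Capitals mark codons 48 to 55 of the 60, inside the helix that lies in the major groove of DNA.
HOXC10: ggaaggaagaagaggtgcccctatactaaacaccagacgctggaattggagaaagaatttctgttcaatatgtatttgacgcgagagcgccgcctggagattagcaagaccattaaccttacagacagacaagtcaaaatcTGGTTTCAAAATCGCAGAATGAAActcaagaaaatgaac
HOXD8: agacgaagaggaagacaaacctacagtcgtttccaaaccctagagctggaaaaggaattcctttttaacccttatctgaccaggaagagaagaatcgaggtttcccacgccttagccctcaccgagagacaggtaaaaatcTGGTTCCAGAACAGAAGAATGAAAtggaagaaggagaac
HOXC11: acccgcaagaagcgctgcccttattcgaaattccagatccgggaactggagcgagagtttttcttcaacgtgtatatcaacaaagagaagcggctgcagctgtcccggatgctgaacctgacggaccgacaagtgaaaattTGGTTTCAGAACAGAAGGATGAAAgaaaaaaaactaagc
HOXD11: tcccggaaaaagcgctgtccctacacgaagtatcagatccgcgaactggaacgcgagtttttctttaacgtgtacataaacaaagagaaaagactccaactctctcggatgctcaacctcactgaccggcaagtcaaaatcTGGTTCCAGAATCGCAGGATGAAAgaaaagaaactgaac
The paralogues *HOXC11* and *HOXD11* shared 144 of 180 bases, whereas *HOXC10* shared 119 with its neighbour *HOXC11* and 109 with *HOXD8*. Over the whole family the 34 pairs with the same paralogue number had a median identity of 80.0% of bases (69.4 to 91.7%). The 596 other pairs had one of 61.1% (47.8 to 93.9%), and the closest of them was more alike than any same-number pair. The 24 bases in capitals took 29 different forms in the 36 genes. *HOXC10* and *HOXD8* were alike at 19 of these 24 bases, as were *HOXC10* and *HOXC11*.

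A transcript was assembled for 23 of the 36 genes in at least 1 library and for 10 of them in all 12 (27.8%, against 45.3% of the 19560 protein-coding genes). These counts assign a transcript to a gene that holds 50% or more of its length. That rule lost members whose transcripts ran past the annotated ends, so levels are also given per coding base, that is, as the FPKM of all transcripts of the strand averaged over the coding bases of the gene, a measure chosen after the values had been seen. Per coding base, 25 genes were above 0 in at least 1 library and 13 in all 12. Of the 8 genes numbered 1 to 3, 6 were above 0 and 3 in every library, and of the 13 numbered 4 to 8, 11 and 5. All 6 genes of paralogue numbers 9 and 10 were above 0, and 5 of them in every library. Of the 9 genes numbered 11 to 13, *HOXC11* and *HOXD11* were, and neither in every library. The 11 genes at 0 throughout included *HOXA11*, *HOXA13*, *HOXB13*, *HOXC12*, *HOXC13*, *HOXD12* and *HOXD13* of the posterior end and *HOXB5* and *HOXB8* of the middle. At this depth their transcripts were not detectable, which does not show that they are absent.

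**Figure D1:**
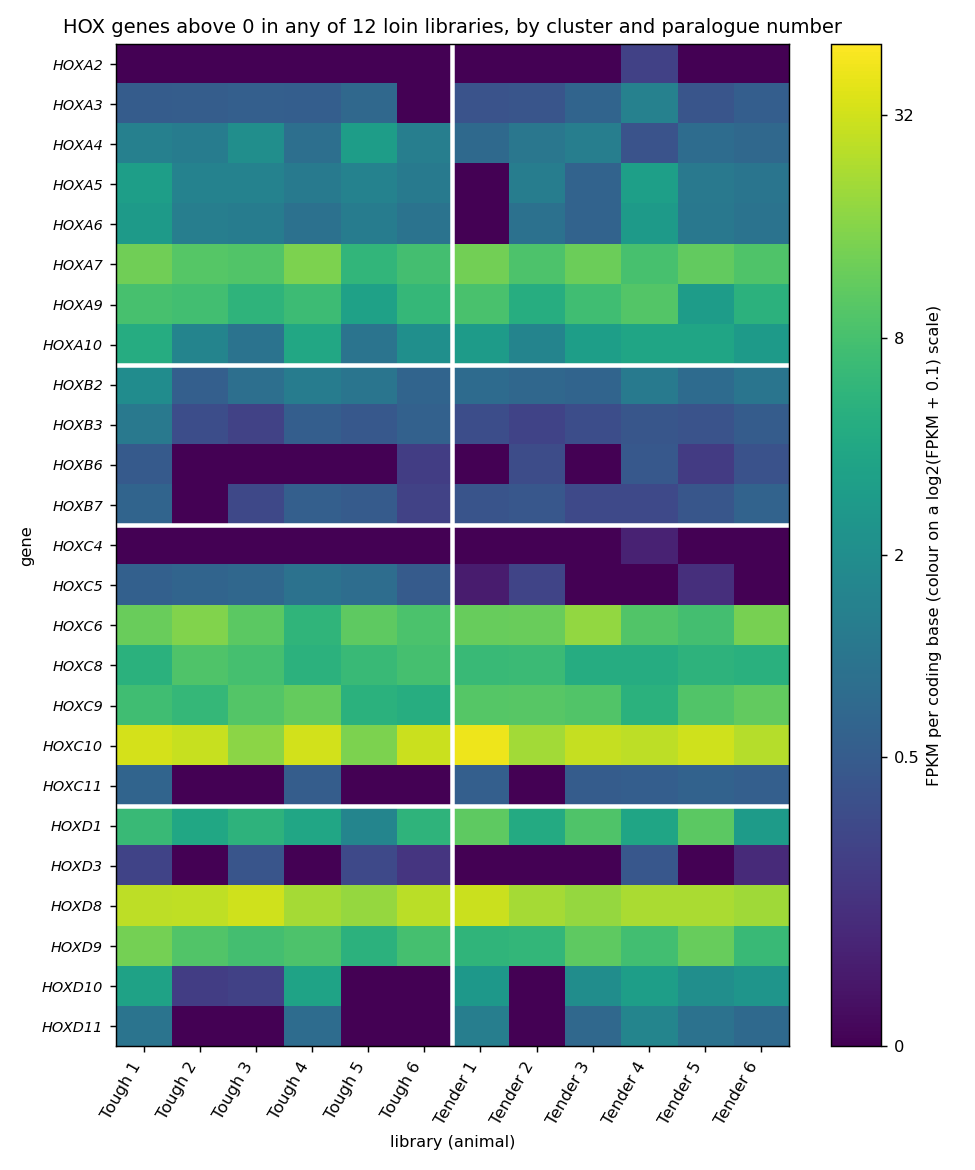
FPKM per coding base of the 25 HOX genes above 0 in at least 1 library (rows, by cluster and paralogue number) in the 12 libraries (columns, 6 Tough and 6 Tender), with colour on a log2(FPKM + 0.1) scale. HOXC10 and HOXD8 are the brightest rows in every library.

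The clusters differed widely in their share of the summed level. *HOXC* held 39.4 to 49.8% of the family's FPKM per coding base in a library, *HOXD* 29.7 to 40.3%, *HOXA* 17.0 to 25.1% and *HOXB* 0.713 to 2.83%. *HOXB* was the lowest of the 4 clusters in all 12 libraries, and its highest gene, *HOXB2*, a factor of the hindbrain in the embryo, was at 0.563 to 1.94 FPKM per coding base. The sum over all members was 82.5 to 149 FPKM.

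Per coding base *HOXC10*, a factor of the lumbar and hind limb level, ranked highest of the family in 9 of the 12 libraries. *HOXD8* did so in the other 3, and by this measure the pair held the first 2 places in every library. In FPKM per coding base *HOXC10* had a lowest, median and highest value of 14.7, 29.8 and 33.0 in the Tough libraries and of 21.2, 27.8 and 43.0 in the Tender libraries. *HOXD8*, a factor of the thoracic level, was at 18.6, 26.4 and 31.8 in Tough and at 18.6, 22.05 and 30.4 in Tender. The ranges of these 2 genes overlapped each other and overlapped between the groups. Per coding base 12 family members were above 0 in all libraries with a mean over 0.5 FPKM. *HOXD8* varied least of them, with a coefficient of variation of 18.3% over the 12 animals, and *HOXA4* most, with 57.6%. The median was 30.4% for the 12 members and 27.7% for 8986 genes selected in the same way. By assigned transcripts *HOXD8* did not vary least, with 33.9% against 24.4% for *HOXC8*.

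By mean level a second tier of 7 genes, all of paralogue numbers 6 to 9 and 1, followed at 1.61 to 18.15 FPKM per coding base. The next gene by mean, *HOXA10*, at 0.978 to 4.54, overlapped the lower end of that range. *HOXC6* stood at 5.75, 10.4 and 15.2 (lowest, median, highest) in Tough and 7.65, 11.8 and 18.15 in Tender, and *HOXA7* at 5.91, 9.31 and 14.6 in Tough and 8.16, 10.1 and 13.2 in Tender. Both are numbered among the genes that pattern the thorax. *HOXC9* ranged from 4.68 to 11.4 FPKM per coding base, *HOXD9* from 5.34 to 13.5, *HOXA9* from 2.99 to 9.32 and *HOXC8* from 4.57 to 8.83 over the 12 libraries. *HOXD1*, the anterior end of its cluster, stood with them at 1.61 to 10.7 FPKM. These ranges overlap, and the order within the tier changed from library to library: *HOXC9* was between 4th and 9th, *HOXD1* between 5th and 10th.

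**Figure D2:**
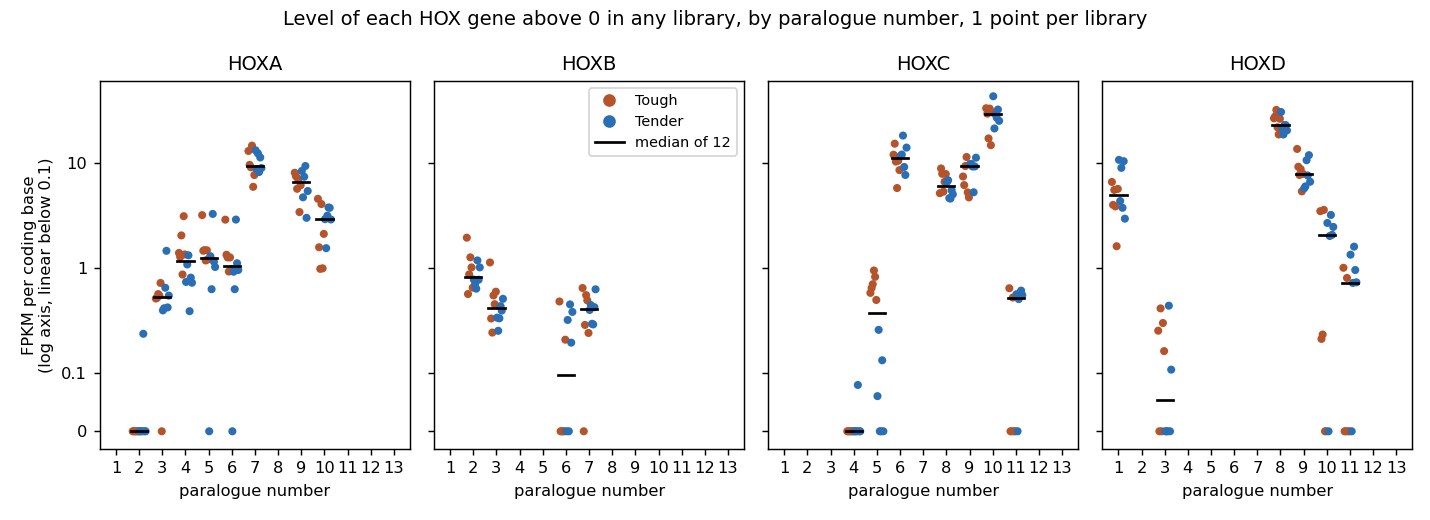
FPKM per coding base (y axis, log scale, linear below 0.1) against paralogue number (x axis) in each cluster, with 1 point per library (orange Tough, blue Tender) and a bar at the median of the 12. The 25 genes above 0 in at least 1 library are shown. Levels of HOXA, HOXC and HOXD peak at numbers 6 to 10. The HOXB genes stay below 2 and are highest at HOXB2.

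By assigned transcripts the mean over the 12 libraries was lower than per coding base for 22 of the 25 members above 0, for example 3.74 against 11.2 FPKM for *HOXC6* and 2.34 against 6.31 for *HOXA9*. *HOXA7* was 0 in every library by that rule, since 43.8 to 48.8% of the best-matching transcript of a library lay in the annotated exons, and *HOXC9* was 0 in Tough 1, Tough 2 and Tough 6 and 7.52 to 12.8 FPKM in the others. Transcripts of *HOXA5* ran through *HOXA6* in 11 of 12 libraries. *HOXD8* fell to 7.70 FPKM in Tough 5 and 8.46 in Tender 2 by assigned transcripts, against 18.6 and 21.3 per coding base. It was there below *HOXC9*, at 9.70 and 9.84, and so not among the first 2 of the family. By assigned transcripts *HOXD8* was above *HOXC10* in Tough 3 and Tender 3, 4 and 6.

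The HOX transcripts were spliced at known sites and at some that the annotation lacks. Of the 72 introns assembled for the family on its strand, 38 are annotated and 11 were found in all 12 libraries, among them the annotated introns of *HOXC10*, *HOXC9*, *HOXC8*, *HOXC6*, *HOXD9*, *HOXD8*, *HOXD1*, *HOXA10*, *HOXA9* and *HOXA7*. The only other intron found in all 12 is one of 173 bases at *HOXA9* (chr18:45408774-45408946) that is not annotated. The intron of *HOXC10* (chr5:19198699-19201849) was spliced in transcripts of 13.97 to 43.0 FPKM. In 4 libraries, 2 of each group, a further donor 299 bases downstream was joined to the same acceptor, in transcripts of 2.74 to 6.72 FPKM. *HOXD8* used 2 acceptors 3 bases apart, the downstream one in 12 libraries and the upstream one in 3, at 18.65 to 31.96 and 2.86 to 3.05 FPKM. The donors and acceptors are shown with the splice dinucleotides, or both acceptors, in capitals (plus strand, 30 bases each).
HOXC10 annotated donor, chr5:19198689-19198718: gaagctaaagGTaaggccgcctgggccgtg
HOXC10 further donor, chr5:19198988-19199017: actgctccagGTgcgtgctggctttggttt
HOXD8 acceptors, chr15:81932573-81932602: gtttattttaatcAGCAGctcctggtagac

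Neighbouring members were also joined in 1 transcript. In 11 libraries at least 1 transcript held 100 or more bases of both *HOXA5* and *HOXA6*, most often with *HOXA3* as well. Those with *HOXA3* were at 0.186 to 2.00 FPKM. The median of *HOXA5* and *HOXA6* was 1.25 and 1.04 FPKM per coding base, and both were at 0 in Tender 1 by that measure. It counts a joint transcript for both genes, so that their likeness is partly built in. *HOXD10* and *HOXD11* were joined in 6 libraries, Tough 4 and all Tender libraries but Tender 2, by an intron that the annotation lacks (chr15:81910501-81920182). Its donor is shown with the dinucleotide in capitals.
HOXD11 donor, chr15:81910491-81910520: ggggaaaatgGTaaatgcaaatgtcccttt
Where members share exon bases in the annotation, as *HOXA5* and *HOXA6* do over 257 bases and *HOXD9* and *HOXD11* over 86, their levels cannot be told apart there.

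The posterior end of the family was present in some animals and not in others. *HOXC11* was at 0.640, 0.522, 0.560, 0.504, 0.539, 0.607 and 0.550 FPKM per coding base in Tough 1, Tough 4 and Tender 1, 3, 4, 5 and 6, and listed at 0 in Tough 2, 3, 5 and 6 and Tender 2. *HOXD11*, on another chromosome, was above 0 in the same 7 libraries, at 1.00, 0.802, 1.34, 0.718, 1.59, 0.954 and 0.728, and listed at 0 in the same 5. By assigned transcripts *HOXC11* was above 0 in the same 7 libraries but *HOXD11* in 4 only, Tough 1 and Tender 1, 3 and 6, so that the match of the 2 genes holds per coding base, the measure added after the values had been seen. The neighbour of *HOXD11*, *HOXD10*, was at 3.46, 3.56, 2.67, 2.01, 3.19, 2.06 and 2.45 FPKM per coding base in those 7 libraries, and in the other 5 at 0.211, 0.232, 0, 0 and 0. Per coding base the 3 genes, on 2 chromosomes, were thus high and low in the same libraries. This measure counts a transcript that joins *HOXD10* and *HOXD11*, found in 6 of these libraries, for both genes. The likeness of these 2 genes is therefore partly built into the measure.

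*HOXA10*, on chromosome 18, was above 0 in all 12 libraries, at 4.54, 1.57, 0.978, 4.05, 0.990 and 2.105 FPKM per coding base in Tough 1 to 6 and 2.91, 1.54, 3.14, 3.75, 3.73 and 2.89 in Tender 1 to 6. Its 5 lowest values came from the same 5 libraries. *HOXC10* did not share this order: Tough 2 and Tough 6 had 29.4 and 30.2, near the median of all libraries, while Tough 3, Tough 5 and Tender 2 had its 3 lowest values (17.1, 14.7 and 21.2). The homeobox of *HOXC11* and that of *HOXD11* were each wholly covered by transcripts in 7 libraries. A transcript too rare for Cufflinks to assemble would also be listed at 0. The coverage behind 1 FPKM was 8.61, 6.86, 8.06, 10.2 and 8.36 reads per base in Tough 2, 3, 5 and 6 and Tender 2, and 7.87, 8.08, 8.03, 8.23, 6.54, 7.10 and 6.98 in Tough 1, Tough 4 and Tender 1, 3, 4, 5 and 6, and its part in the entries of 0 was not tested. Where along the muscle each RNA sample was cut is not given in the sources used here, and its part was not tested.

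An annotated antisense RNA followed the same animals. *LOC110260668* is a long non-coding RNA on the minus strand between *HOXC11* and *HOXC10* (chr5:19194155-19197371), 438 bases from the start of *HOXC10*. It was at 0.801, 1.64, 1.34, 2.08, 0.857, 2.84 and 3.04 FPKM over its exons in Tough 1, Tough 4 and Tender 1, 3, 4, 5 and 6, at 0.0792 in Tough 2, and at 0 in Tough 3, 5 and 6 and Tender 2. The kit did not mark strand, and the strand of a spliced transcript comes from its splice sites. Unspliced transcripts listed with a strand were counted too, 6 of the 16 of *HOXC11* for example, and the source of their strand is not given. Of the 6 Tender animals 5 had *HOXC11* and *HOXD11*, and of the 6 Tough animals 2, and the exact permutation p per coding base was 0.188 for *HOXC11* and 0.113 for *HOXD11* (two-sided, unadjusted), while limma gave p = 0.0428 for *HOXD11*, and *LOC110260668* gave p = 0.0563 by the same exact test.

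**Figure D3:**
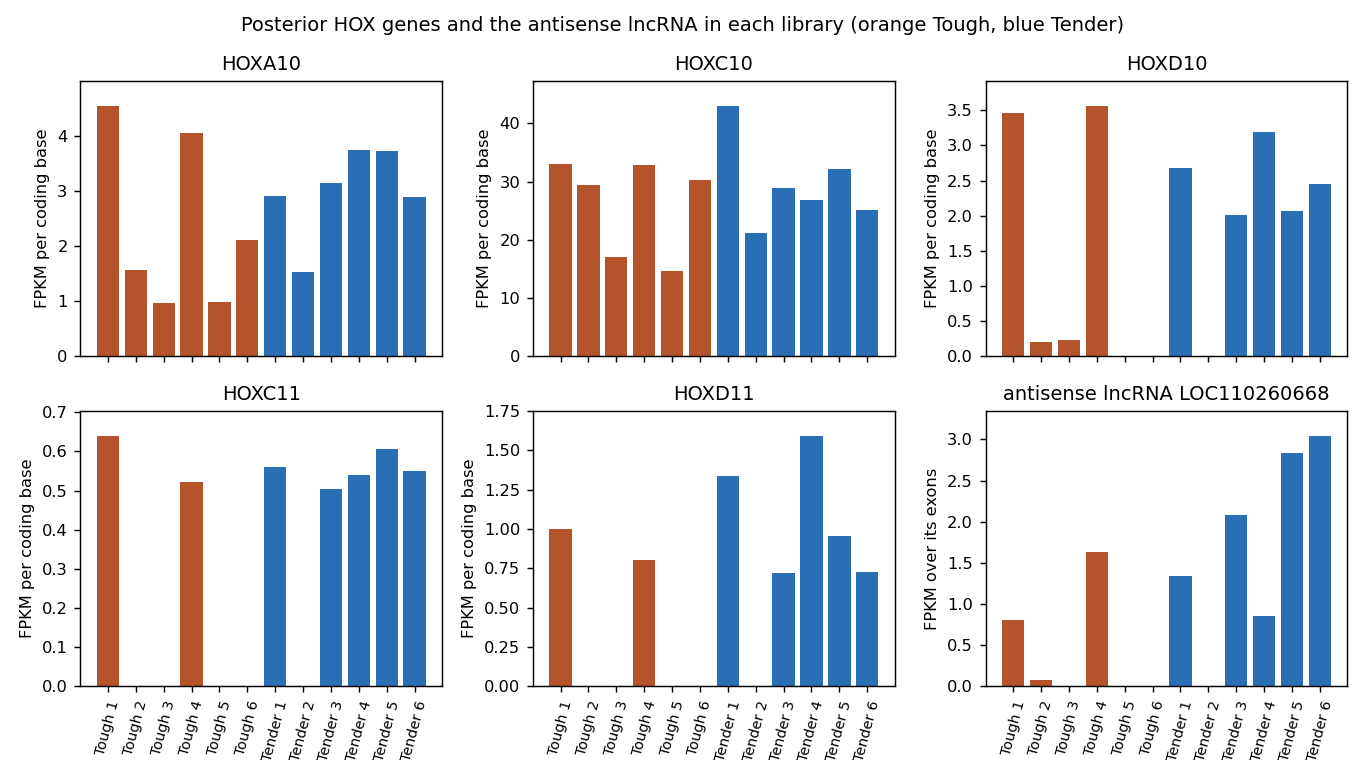
Level of the posterior HOX genes in FPKM per coding base, and of the antisense lncRNA LOC110260668 in FPKM over its exons (y axes), in each of the 12 libraries (x axis; orange Tough, blue Tender). HOXD10, HOXC11, HOXD11 and the lncRNA are at or near 0 in Tough 2, 3, 5 and 6 and Tender 2, where HOXA10 is lowest, while HOXC10 is at 14.7 FPKM or more in every library.

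The comparison of the groups asks which genes differ between the loins of animals picked from the tough and from the tender extreme of breeding values. By assigned transcripts and per coding base, *HOXC5* alone of the family separated all Tough from all Tender animals. Every other member overlapped between the groups or was listed at 0. With limma on log2(FPKM + 0.5), 9029 genes had a mean above 0.5 FPKM by assigned transcripts, and 0 of them (0%) passed an adjusted p of 0.10, a p of 0.05 and a fold of 1.5, the smallest adjusted p being 0.652. The unadjusted p was 0.05 or less for 224 genes (2.48%), 64 of them higher in Tough (0.709%) and 160 in Tender (1.77%). After median-of-ratios scaling the split was 135 higher in Tough of 277, and after quantile normalization 143 of 289. Of the 11 HOX genes tested, 0 passed the first rule and 2 the second, *HOXC8* higher in Tough and *HOXC9* in Tender, and 6 had a higher mean in Tough. Without Tough 2, Tough 6, Tender 4, Tender 5 or Tender 6 no HOX gene passed the second rule, without Tough 1, 3 or 5 or Tender 1 or 3 there was 1, and without Tough 4 there were 3. The median log2 difference was 0.05 for these 11 members and -0.04 for all genes tested.

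*HOXC5* is the exception, and it lay below the filter of that test. It encodes a factor of the cervical and thoracic level, and its intron holds the gene of the microRNA *MIR615*. Its FPKM by assigned transcripts was 0.508, 0.622, 0.687, 0.888, 1.01 and 0.479 in Tough 1 to 6 and 0.220, 0.286, 0, 0, 0.166 and 0.222 in Tender 1 to 6. Every Tough animal was above every Tender animal, with means of 0.699 ± 0.212 and 0.149 ± 0.121 FPKM (SD, n = 6 each) and an exact permutation p of 0.00216, the smallest that 924 splits allow. With a mean above 0.1 FPKM, 4 of 11149 genes (0.0359%) had every Tough library above every Tender library, *HOXC5* among them, and 10 (0.0897%) the reverse, so that 14 (0.126%) did not overlap. Per coding base these were 4 of 11243 genes (0.0356%), 3 (0.0267%) and 7 (0.0623%). The study itself listed *HOXC5* from these animals, so that the separation is no independent evidence.

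*HOXC5* had 1 assembled transcript in each of 10 libraries. Its splicing, homeobox coverage and level per coding base come from these same transcripts and are not separate support for the separation. The only intron of *HOXC5* (chr5:19246389-19247087) was spliced in 6 of 6 Tough and 2 of 6 Tender libraries, and the homeobox was wholly covered in the same numbers. Per coding base the level was 0.495 to 0.944 FPKM in Tough and 0 to 0.257 in Tender, with 3 Tender libraries at 0. In Tender 6 the only transcript was an unspliced one of 457 bases outside the coding part. The coverage was low, a median of 4.37 reads per base where a transcript was assembled, and the bounds that Cufflinks gave overlapped between the nearest animals, 0.353 to 0.636 FPKM for the transcript of Tough 6 and 0.208 to 0.508 for that of Tender 2.

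In limma with a mean above 0.1 FPKM the log2 difference of *HOXC5* by assigned transcripts was 0.89 (SE 0.16), second by p of 11149 genes, with an adjusted p of 0.335. In that fit 3 of 19 HOX genes had an unadjusted p of 0.05 or less, 2 of them higher in Tough, where 291 of all genes did (2.61%), 0.906% higher in Tough and 1.7% in Tender. Per coding base it was 1.06 (SE 0.15), with an adjusted p of 0.0626 in limma, the only 1 of 11243 genes called (0.00889%). Here 3 of 23 HOX genes had an unadjusted p of 0.05 or less, 2 of them higher in Tough, against 3.1% of all genes, 0.969% higher in Tough and 2.13% in Tender. This call was found after the values had been seen. With 1 animal left out, limma's adjusted p ran from 0.0271 without Tender 2 to 0.291 without Tough 5. Among these fits it passed 0.10 only in the absence of Tender 2 (0.0271) or of Tough 6 (0.0951). With all animals it was 0.0545 after median-of-ratios scaling and did not pass with the replicate number as a block. All 8 fibroblast markers had a higher mean in Tough, where 39.7% of all genes tested were higher by assigned transcripts. *COL14A1* alone had an unadjusted p of 0.05 or less in limma. The study itself listed *COL1A1*, *COL1A2* and *COL14A1* as higher in Tough, so that these genes are no independent evidence. The summed level of the 8 markers was 75.4 to 224 FPKM in Tough and 73.1 to 165.3 in Tender. Their part in the level of *HOXC5* was not tested. In whole muscle, fewer cells of a kind and less RNA per cell cannot be told apart.

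**Figure D4:**
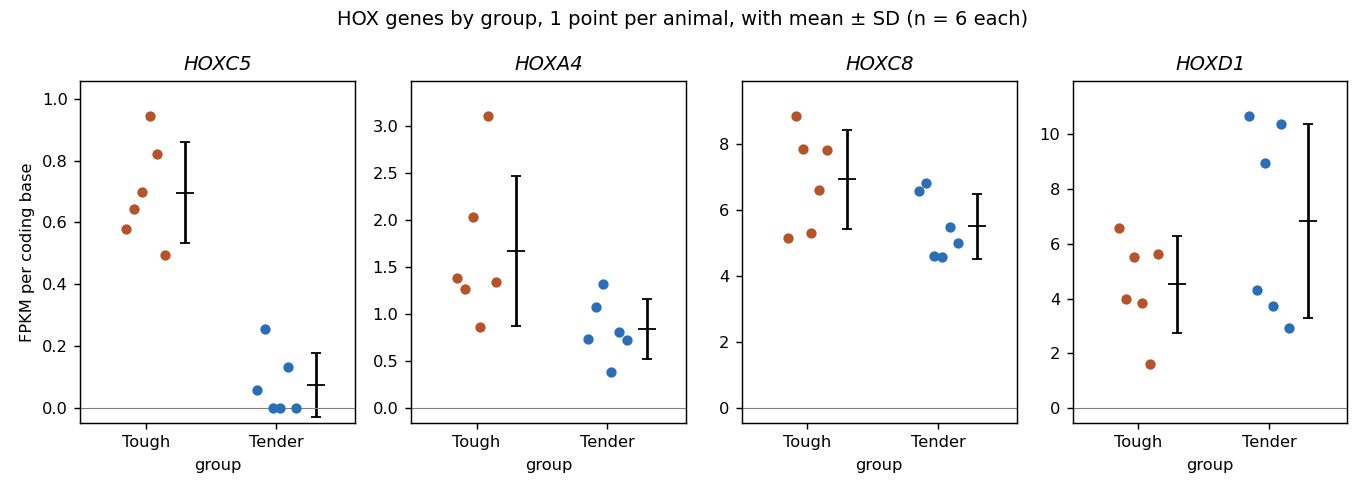
FPKM per coding base (y axis) of 4 HOX genes in the 6 Tough and 6 Tender animals (points), with the mean and SD of each group (bars). Every Tough animal is above every Tender animal for HOXC5, and the groups overlap for HOXA4, HOXC8 and HOXD1.

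The neighbours of *HOXC5* did not share its separation. *HOXC6*, immediately 5′ of it, had nearly equal medians of 10.4 and 11.8 FPKM per coding base (exact permutation p = 0.396), and *HOXC4*, immediately 3′, was above 0 in 1 library only, Tender 4. *HOXC8*, which acts in the thoracic spine and motor neurons, had 6.00, 8.65 and 11.3 FPKM by assigned transcripts in Tough (lowest, median, highest) and 5.43, 6.42 and 7.85 in Tender. Its log2 difference was 0.36 (SE 0.16), with p = 0.0432 and an adjusted p of 1.00 in limma and an exact permutation p of 0.0519, and 4 of 6 Tough animals were above all Tender animals. Per coding base it was 0.30, with an exact permutation p of 0.0844, and with transcripts that lie to 90% or more in the gene it turned to -1.21.

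*HOXC9* reached an unadjusted p of 0.0393 in limma (exact permutation p = 0.149), with a log2 difference of -2.13, and 3 of its Tough libraries are listed at 0 by assigned transcripts. Per coding base it was above 0 in all 12 libraries, with a log2 difference of -0.31 (SE 0.22) and an exact permutation p of 0.219. *HOXA4*, a factor of the neck level, was at 0.864, 1.36 and 3.10 FPKM per coding base in Tough and 0.387, 0.771 and 1.32 in Tender. Its log2 difference was 0.66 (SE 0.23, limma p = 0.0139, adjusted p = 1.00, exact permutation p = 0.0152), and 4 of 6 Tough animals were above all Tender animals. By assigned transcripts the difference was 0.70, with p = 0.0517 in limma and an exact permutation p of 0.0563.

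*HOXC11* and *HOXD1*, which the study also listed from these animals, were higher on average in Tender without separating the groups. *HOXD1* was at 1.61, 4.74 and 6.57 FPKM per coding base in Tough and 2.94, 6.64 and 10.7 in Tender. Its log2 difference by assigned transcripts was -0.49 (SE 0.38, exact permutation p = 0.193), and 3 of 6 Tender animals were above all Tough animals. *HOXC11* had a log2 difference per coding base of -0.52 (SE 0.27, limma p = 0.0743) and *HOXD11* one of -0.85 (SE 0.38, limma p = 0.0428), with the exact permutation p of 0.188 and 0.113 given above. Of 17 HOX genes with a mean above 0.5 FPKM per coding base, *HOXA4* (higher in Tough) and *HOXD11* (higher in Tender) had an unadjusted p of 0.05 or less, where 291 of 9612 genes did (3.03%), 0.77% higher in Tough and 2.26% in Tender. All 6 endothelial markers tested had a higher level in Tender, 0 of them at an unadjusted p of 0.05 or less in limma, with summed levels of 16.7 to 34.3 FPKM in Tough and 26.9 to 43.9 in Tender and *CLDN5* listed at 0, and their part in these differences was not tested.

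**Figure D5:**
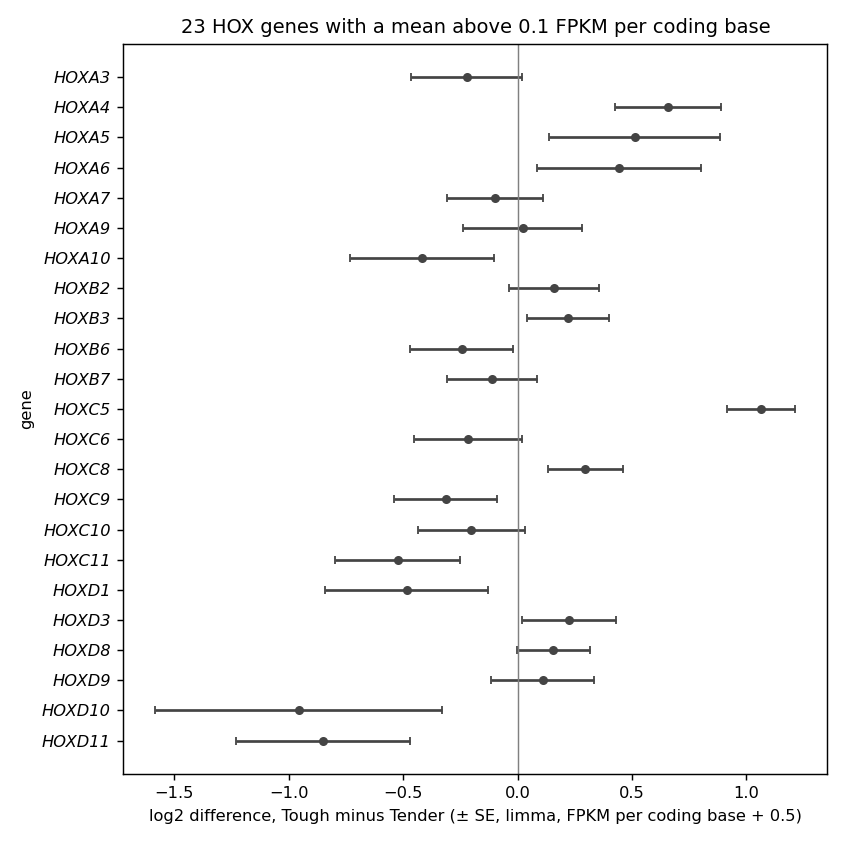
Difference in log2(FPKM per coding base + 0.5), Tough minus Tender, with the standard error from limma (bars), for the 23 HOX genes with a mean above 0.1 FPKM. HOXC5 is at 1.06, and 11 of the 23 genes lie above 0.

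The proteins that work with HOX factors were transcribed, and no gene of either list below reached an unadjusted p of 0.05 or less in limma. TALE cofactors bind DNA beside HOX proteins and sharpen their choice of site. Of 11 such genes 10 had a transcript, and *PBX2* and *PKNOX2* were the highest, at 6.96 and 5.74 FPKM on average over the 12 libraries. Of the 7 tested, 3 had a higher level in Tough and 4 in Tender, with a median log2 difference of -0.02. Polycomb and Trithorax proteins keep *HOX* clusters silent or active. Of the 26 genes of that list *RBBP4*, *RING1* and *PCGF2* were the highest (20.8, 9.25 and 8.21 FPKM), and *CBX2* was listed at 0. The methyltransferase *EZH1* was at 5.06 to 9.63 FPKM in all 12 libraries and its paralogue *EZH2* above 0 in 1, a pair named after their values were seen. Of the 21 tested, 9 were higher in Tough and 12 in Tender, also with a median of -0.02.

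Other genes of axial and regional identity were partly at 0. Of 35 such genes 12 were at 0 in every library, among them *CDX1*, *CDX2* and *CDX4*, which switch on *HOX* clusters in the embryo, and *TBX4*, *TBX5* and *PITX1* of the limbs. *TBX15*, at 25.7 FPKM on average, and *TBX1*, at 5.36, were among the highest. Of the 15 tested, 11 were higher in Tough, against 39.7% of all genes tested, and 2 of these had an unadjusted p of 0.05 or less, against 0.709% of all genes. *ZIC1*, a factor of the dorsal somite and the back, was at 1.33 to 2.81 FPKM in Tough and 1.14 to 1.42 in Tender. Its log2 difference was 0.41 (limma p = 0.0306, adjusted p = 1.00, exact permutation p = 0.00433). The study itself marked *ZIC1* among the genes that differ between its groups, so that this difference is no independent evidence. *IRX3* was at 3.56 to 8.04 FPKM in Tough and 0.395 to 8.97 in Tender, with a log2 difference of 1.36 (limma p = 0.0156, adjusted p = 1.00, exact permutation p = 0.162), and the groups overlapped.

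The annotated genes around and inside the clusters were read in the same way. Of the 8 protein-coding genes that flank them, *CALCOCO1* (21.9 to 40.1 FPKM), *MTX2* (7.11 to 13.5) and *SMUG1* (0.137 to 0.812) were above 0 in all 12 libraries, while *EVX1* and *EVX2*, the homeobox genes beyond the posterior ends of *HOXA* and *HOXD*, were at 0 in all. Inside the clusters lie 21 annotated genes that are no members, 15 of them on the opposite strand and 5 microRNA genes. Only 6 had a transcript and 3 in at least 8 libraries: *LOC110260668*, *LOC102167757* between *HOXC10* and *HOXC9* (0.618 to 3.64 FPKM) and *LOC110257186* between *HOXD8* and *HOXD3* (0 to 2.11 FPKM). The last 2 did not follow the posterior genes: *LOC102167757* was highest in Tender 2, at 3.64 FPKM, and *LOC110257186* was at 0 in Tender 4 and above 0 in all others.

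Across the 25 genes above 0 in at least 1 library, Spearman's rho between the levels per coding base of any 2 libraries was 0.738 to 0.988, with a median of 0.880 over 66 pairs. This is a description across genes that share clusters and libraries.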

How the data were processed

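RNA from *Longissimus dorsi* of 6 Tough and 6 Tender pigs was sequenced from libraries that do not mark strand. The authors used Trim Galore for trimming, TopHat2 2.1.0 for mapping (build Sscrofa11.1) and Cufflinks 2.2.1 for assembly, library by library. The deposited values are the FPKM of each assembled transcript, with its bounds and coverage. The deposited score of each line ranks isoforms by the authors' Cufflinks run and was not used. Read totals were not used, so precision was judged from coverage.

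Transcripts were assigned to a gene of NCBI's Sscrofa11.1 annotation on the same strand holding at least 50% of their bases, and gene FPKM was the length-weighted sum over the exon length. FPKM per coding base was added after the values had been seen. Groups follow the labels. They were compared with limma 3.58.1 (R 4.3.3) on log2(FPKM + 0.5), mean above 0.5 FPKM, Benjamini-Hochberg adjusted over all genes. Exact two-sided permutation tests over 924 splits, written with numpy 2.4.6, were computed for every HOX gene and left unadjusted. Spearman's rho came from scipy 1.17.1. A call needed p of 0.05, adjusted p of 0.10 and a 1.5 fold. Fold changes on this scale understate those of low genes. The fits were tested on simulated data.

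Homeoboxes were located in the annotated coding sequence. Members with a mean of at least 1 FPKM or p of at most 0.05, the posterior members and those the study listed are named, and of each partner list up to 3 of the highest. Some items are not reported here. The members, lists and rules were chosen with earlier results of these data known. Other pseudocounts, filters, scalings, ways of summing transcripts, a replicate block and leaving out each animal were tried. Each library is 1 animal, and batch could not be assessed.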

Additional observations from a re-analysis of the deposited data

Results flagged for a closer look

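In 30 groups of 6 animals the highest or lowest animal was set against the others by Dixon's ratio of its gap to the range of the group and its critical value for 6 samples, which chance passes in about 1 of 20 groups. It was passed 3 times, each time by the library Tough 1 as the highest of its group and by assigned transcripts. *HOXA6* was at 3.73 FPKM there, with 1.26 in the nearest Tough animal (ratio 0.779). *HOXD9* was at 10.79 FPKM, with 6.94 in the nearest (ratio 0.628). *HOXD11* was at 0.6828 FPKM, the others being listed at 0 (ratio 1.0), although per coding base Tough 4 had 0.802 FPKM of it. With all others at 0 the ratio is 1.0 at any level, so the rate of 1 in 20 does not apply to *HOXD11*.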

How the results depend on the processing

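The coverage of *HOXC11*, *HOXD11* and *HOXC5* was low, a median of 2.17, 4.69 and 4.37 reads per base where assembled, which limits the precision of their levels. The cause of the changes below was not tested. The number of HOX genes called between the groups, 0, became 1 (*HOXC5*) per coding base with a mean above 0.1 FPKM and was 0 under the other 25 alternatives. The 2 genes at an unadjusted p of 0.05 or less became 1 with median-of-ratios scaling, 0 with transcripts to 90% in the gene, 1 per exon base, and 0 to 3 with an animal left out. The 10 genes with a transcript in all 12 libraries became 5 with the 90% share, 15 per exon base and 13 per coding base.

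Of 308 alternative log2 differences 17 changed sign. *HOXA9* turned to 0.023 per coding base, with either filter, and ranged from -0.37 to 0.035 with an animal left out (0.035 without Tender 4). *HOXA10* turned to 0.20 and *HOXC8* to -1.21 with the 90% share. *HOXC10* turned to -0.34 with a plain sum of transcript FPKM and to -0.20 per coding base with either filter, and ranged from -0.10 to 0.20 with an animal left out, below 0 without Tough 1 (-0.03), Tough 4 (-0.05), Tough 6 (-0.0022), Tender 3 (-0.06) or Tender 6. *HOXC6* ranged from -0.34 to 0.19, above 0 without Tough 4 (0.19) or Tender 3 (0.03), and *HOXD8* from -0.13 (without Tender 2) to 0.40. *HOXD9* turned to -0.0023 with a plain sum. No sign changed for 7 named genes. The difference of *HOXC5* in mean level was 0.471 to 0.622 FPKM over 17 alternatives, with exact permutation p of 0.00216 to 0.0195. Its groups overlapped in a plain sum of transcript FPKM, with Tender 6 at 0.790 and Tough 1 at 0.582.

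The replicate numbers label different animals: deviations of same-numbered animals correlated at -0.22 to 0.02 and no animal correlated best with its own number. With the replicate number as a block, 171 genes had an unadjusted p of 0.05 or less instead of 224, 0 HOX genes were called, and the 2 at an unadjusted p of 0.05 or less were *HOXA4* and *HOXC9* in place of *HOXC8* and *HOXC9* (limma p under the block 0.0166 for *HOXA4* and 0.0906 for *HOXC8*). Limma's adjusted p of *HOXC5* per coding base was 1.0.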
